A study of Mus musculus with 73 samples.

Results

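Potassium channel genes were examined in 73 single cells of mouse cochlea labelled as Casz1-null inner hair cells at postnatal day 14. The members are all gene rows whose symbol starts with Kcn followed by a letter, leaving out Kcnn2 and 4 antisense symbols ending in os, which gave 94 of 55291 gene rows. Of the members, 76 encode subunits of the pore family, 10 of them silent subunits that form channels only with a partner, and 18 encode auxiliary or other products. The mice carried Atoh1Cre/+ together with Casz1flox/flox, so that Cre made in cells of the hair cell lineage deletes Casz1 and opens the GFP reporter Rosa26-CAG-Loxp-stop-Loxp-3xGFP (Ai47). They also carried Fgf8-Flpo/+ with Rosa26-CAG-Frt-stop-Frt-tdTomato, which marks cells that have used Fgf8, an inner hair cell gene. Cells positive for GFP and tdTomato were hand-picked, and each gave a full-length cDNA library. Wild-type cells were not analysed here. All cells form 1 group and no animal is named, so they count as 1 sample. The values describe these libraries, carry no p-value and do not show an effect of the deletion.

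Potassium channels set the resting potential of hair cells and shape the voltage response to sound. In mature inner hair cells, a large calcium- and voltage-gated BK current through Kcnma1 and delayed rectifier currents repolarise the cell quickly. Voltage-gated channels are built from pore subunits, some of which stay silent without a partner, and from auxiliary subunits such as the Kv beta, KChIP and KCNE families. Inward rectifiers and tandem-pore channels carry background current.

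Libraries held 11027945 to 37183702 counts. Levels are given in CPM, counts scaled to a common library total. A gene was called detected from 10 CPM, equal to 110 counts where depth was lowest and 372 where it was highest. Each interval is a 95% Clopper-Pearson interval (exact) on a share of cells and covers no error beyond counting. Of the hair cell markers, Myo7a, Myo6, Pou4f3, Tmc1, Cib2, Espn, Slc17a8 and Otof were detected in all 73 cells, Gfi1 in 69 and Rasd2 in 2. All 10 inner hair cell markers listed were detected in at least 37 cells, Gata3 and Calb2 in all 73, and Atp2a3, a calcium pump, in 53. Of 8 outer hair cell markers, 4 were detected in at least 37 cells, among them Slc26a5, the motor protein prestin, in 51, whereas Ikzf2 was found in 6, Bcl11b in 1, Lbh in 20 and Chrna10 in 31. The lists did not split cleanly, since Fgf8 of the inner hair cell list stood at 0.58 with Slc26a5 by rank correlation. Markers of other cell types of the cochlea numbered 46, and 37 of them were found in fewer than 10 cells, at a median summed level of 19.6 CPM per cell. Library 5 stood apart with 7365 CPM of these markers, led by the lymphocyte genes Ighm and Igkc, and library 67 with 1505 CPM, led by the supporting cell gene Epyc. Of the 37, Pou3f4 and Atp13a5 were at 0 in every cell. The other 9 were the neuronal genes Nefl (70 cells), Snap25 (68) and Nefm (64), the glial genes Cnp (29) and Sox10 (27), and C1qb (22), Col1a1 (14), Gjb6 (11) and Coch (10).

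Few of the 94 genes were present in most cells. Detection at 10 CPM in at least 37 cells was reached by 10 members (10.6%), against 8.87% of all gene rows, so this share is close to the background. Detection in 1 or more cells was reached by 47 members (50%), against 34.5% of all gene rows. Another 32 members had counts but never 10 CPM, and 15 had no count in any cell. A median of 12 members was detected per cell (range 7 to 16). That number had a rank correlation of 0.32 with the number of genes per library and -0.15 with total counts over the 73 cells. The mean reached 10 CPM for 15 members (15.96%, against 15.6% of all gene rows), and these held a median of 98.6% of the summed potassium channel counts.

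**Figure D1:**
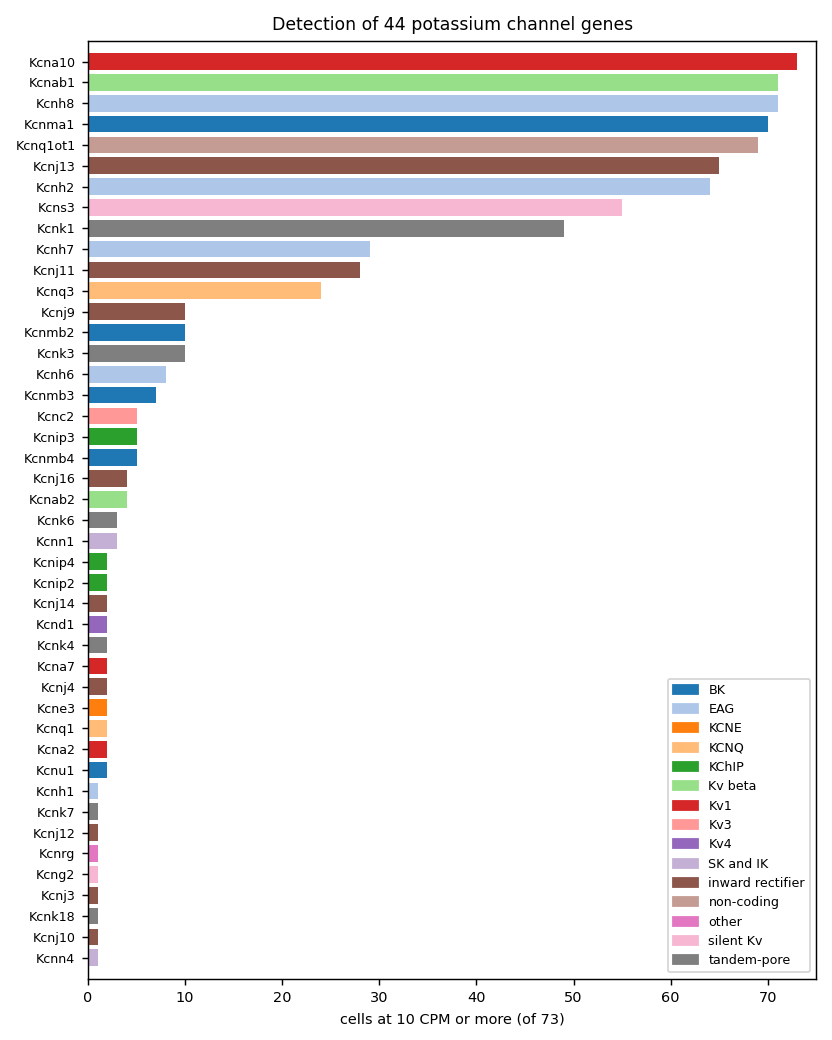
Number of cells (of 73, horizontal axis) in which each of 44 potassium channel genes reached 10 CPM, with bars coloured by role. In 49 or more cells there are 9 genes, among them Kcna10 in all 73. Another 3 are in 24 to 29 cells, and the other 32 are in 10 or fewer.

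Kcna10, a voltage-gated channel of the Kv1 family expressed in hair cells, was the most abundant member. All 73 cells passed the detection level (100%, interval 95.1 to 100), as they did for 1.13% of all gene rows, with a lowest level of 459 CPM, a median of 1417 CPM and a highest of 3448 CPM. No cell was low: the lowest value, in library 17, was still far above the detection level. In mm10 it occupies bases 107183056 to 107195721 of chromosome 3 (plus strand) and overlaps no other annotated gene. It made up a median of 45.1% of the summed potassium channel CPM (range 17.4 to 71.7).

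The other Kv1 genes were nearly silent. Kcna2 and Kcna7 were each detected in 2 cells, with maxima of 23.4 and 34.7 CPM. Kcna1, Kcna3, Kcna5 and Kcna6 had counts but stayed at or below 2.06 CPM, and Kcna4 had none. Kcna10 was thus the single Kv1 pore gene found in more than 2 cells.

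Kcnab1, which encodes a cytoplasmic beta subunit of Kv1 channels, was detected in 71 cells (97.3%, interval 90.5 to 99.7). Its level ran from 0 through a median of 194 CPM to 839 CPM. Only libraries 34 and 68 were below 10 CPM. The gene spans 65109384 to 65378223 on the plus strand of chromosome 3 and shares exon bases with the antisense gene A330015K06Rik, so a part of its counts may be uncertain where strand was not used. Kcnab2 was detected in 4 cells and Kcnab3 in 0.

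The BK channel was represented by its pore gene and little else from the family. Kcnma1, the calcium-activated pore subunit of the fast current of inner hair cells, was detected in 70 cells (95.9%, interval 88.5 to 99.1). Its lowest level was 0.32 CPM, its median 182 CPM and its highest 573 CPM. All 73 cells had at least 1 count, and only libraries 46, 55 and 73 were below 10 CPM. The gene occupies chromosome 14 from 23289431 to 24014491 on the minus strand and shares exon bases with 4930519K11Rik.

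BK beta subunits, which alter gating and inactivation, were rare. Kcnmb2 was detected in 10 cells, Kcnmb3 in 7 and Kcnmb4 in 5, while Kcnmb1 stayed at or below 0.16 CPM. All 10 cells with Kcnmb2 also had Kcnma1, as did 70 of all 73 cells. The maximum of Kcnmb2, 175 CPM, lay in library 67, and library 5 held 92.9 CPM. Without these libraries, which carried markers of other cells, Kcnmb2 was detected in 11.3% of cells in place of 13.7%, and its mean was 9.06 CPM in place of 12.5, below the minimum of 10 CPM used for the correlations. Kcnu1, a relative of Kcnma1 known from sperm, was detected in 2 cells with a maximum of 13.2 CPM. By contrast Lrrc52, a BK gamma subunit that is no Kcn gene, was found in 64 cells (median 201 CPM), and 62 cells had both Lrrc52 and Kcnma1.

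Kcnq3, a KCNQ channel better known from neurons, reached 10 CPM in 24 cells (32.9%, interval 22.3 to 44.9), its median was 0.13 CPM and its highest level 279 CPM. It was at 0 in 32 cells, while 17 cells reached 50 CPM. Kcnq5 stayed below 1 CPM. A low level in a full-length library does not show that the protein is absent. Kcnq1, the channel of strial marginal cells, was detected in 2 cells (maximum 28.9 CPM), and its partner Kcne1 had no count in any cell.

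The KCNE family of small auxiliary subunits was almost absent from the libraries. Kcne3 was detected in 2 cells, Kcne1l had counts in 1 cell, and Kcne1, Kcne2 and Kcne4 had none. Detection in 0 of 73 cells leaves room for a share of at most 4.11% by the rule of 3 counts, or 4.93% by the Clopper-Pearson limit.

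Kcnq1ot1 is a long non-coding RNA transcribed antisense to Kcnq1, known for silencing neighbouring genes on the paternal chromosome, and it encodes no channel. It was detected in 69 cells (94.5%, interval 86.6 to 98.5), from 0 through a median of 302 CPM to 1275 CPM. Its high CPM goes with 93092 annotated bases: per kb its median was 3.25 CPM. It shares exon bases with Kcnq1 on the other strand, and reads of these 2 genes cannot be told apart where strand was not used.

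EAG-type channels, a voltage-gated family named after a fly mutant, supplied 3 of the 13 members detected in more than 10 cells. Kcnh8 was detected in 71 cells (97.3%, interval 90.5 to 99.7), from 0 through a median of 189 CPM to 649 CPM, and libraries 3 and 35 were the low ones. Kcnh2, the ERG channel of cardiac repolarisation, was detected in 64 cells (87.7%, interval 77.9 to 94.2), from 0 to 542 CPM with a median of 95.2 CPM. Both were found in 62 cells.

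Kcnh7, another ERG-type channel, was detected in 29 cells (39.7%, interval 28.5 to 51.9) and had no count in 30. Of the 29 cells, 24 were at 50 CPM or more, and the maximum was 333 CPM. Kcnh7 shares exon bases with Gca, which was detected in 11 cells. Kcnh6 was detected in 8 cells and Kcnh1 in 1, while Kcnh3 stayed below 1 CPM and Kcnh4 and Kcnh5 had no count.

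Kcns3, a silent subunit that needs a Kv2 partner, was detected in 55 cells (75.3%, interval 63.9 to 84.7), from 0 through a median of 84.8 CPM to 275 CPM. Kcnb2, a Kv2 pore gene, stayed at or below 1.27 CPM. The other 9 silent subunits were detected in 1 cell in all, library 22 with Kcng2 at 63.01 CPM. Of these, Kcns1, Kcnf1 and Kcng3 had trace counts, and Kcns2, Kcng1, Kcng4, Kcnv1 and Kcnv2 had none.

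Among Kv3 genes, which encode fast delayed rectifiers of neurons, Kcnc2 was detected in 5 cells, with a maximum of 84.5 CPM, again in library 67. Kcnc1 and Kcnc4 stayed below 1 CPM. Of the Kv4 genes for A-type channels, Kcnd1 was detected in 2 cells, and Kcnd2 and Kcnd3 in 0. The KChIP partners of Kv4 were equally rare, with Kcnip3 in 5 cells, Kcnip2 and Kcnip4 in 2 each and Kcnip1 in 0. Dpp10, a membrane partner of Kv4 outside the Kcn family, was nevertheless detected in 46 cells (median 27.4 CPM).

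Kcnj13, an inward rectifier with weak rectification, was the second most abundant channel gene. It was detected in 65 cells (89.0%, interval 79.5 to 95.1), from 0 through a median of 338 CPM to 1327 CPM. Unlike Kcna10 it was absent from a small set of cells: libraries 7, 8, 17 and 28 had no count, and libraries 14, 19, 21 and 72 stayed below 10 CPM. Its coordinates are chromosome 1, 87386363 to 87394729, minus strand, where it shares exon bases with Gigyf2 of the plus strand. Gigyf2 had a median of 58.5 CPM, below that of Kcnj13, and the rank correlation between them was 0.06.

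The other inward rectifiers were found in fewer cells. Kcnj11, the pore of ATP-sensitive channels, was detected in 28 cells (38.4%, interval 27.2 to 50.5), from 0 through a median of 1.51 CPM to 103 CPM. Kcnj9, a G-protein-gated channel of neurons, was detected in 10 cells (13.7%, interval 6.77 to 23.8), and its highest values were 399 CPM in library 8 and 225 CPM in library 14. Of the 8 cells below 10 CPM for Kcnj13, 5 had Kcnj9, against 5 of the 65 cells with Kcnj13.

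Inward rectifiers known from other cochlear cells were detected in few cells. Kcnj10, used by intermediate cells, supporting cells and glia, was detected in 1 cell at 15.7 CPM. Kcnj16 was detected in 4 cells, with a maximum of 188 CPM in library 21. Of the remaining inward rectifiers, Kcnj14 and Kcnj4 were detected in 2 cells each and Kcnj12 and Kcnj3 in 1 each. Kcnj2, the classical inward rectifier, reached 6.88 CPM at most, Kcnj5, Kcnj6 and Kcnj8 stayed below 1 CPM, and Kcnj1 and Kcnj15 had no count.

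Of 14 tandem-pore genes, which carry leak current, Kcnk1 alone was in most cells. It was detected in 49 cells (67.1%, interval 55.1 to 77.7), with a median of 52.5 CPM and a highest level of 206 CPM, and shares exon bases with Gm45875. Kcnk3 followed in 10 cells, Kcnk6 in 3, Kcnk4 in 2, and Kcnk7 and Kcnk18 in 1 each. Counts below 10 CPM were seen for Kcnk2, Kcnk5, Kcnk9, Kcnk10, Kcnk12 and Kcnk15, and none for Kcnk13 and Kcnk16. Small-conductance relatives of the excluded Kcnn2 were rare, with Kcnn1 in 3 cells, Kcnn4 in 1 and Kcnn3 in 0. The sodium-activated channels Kcnt1 and Kcnt2 stayed below 1 CPM. Kcnrg, a regulator of channel assembly, was detected in 1 cell.

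**Figure D2:**
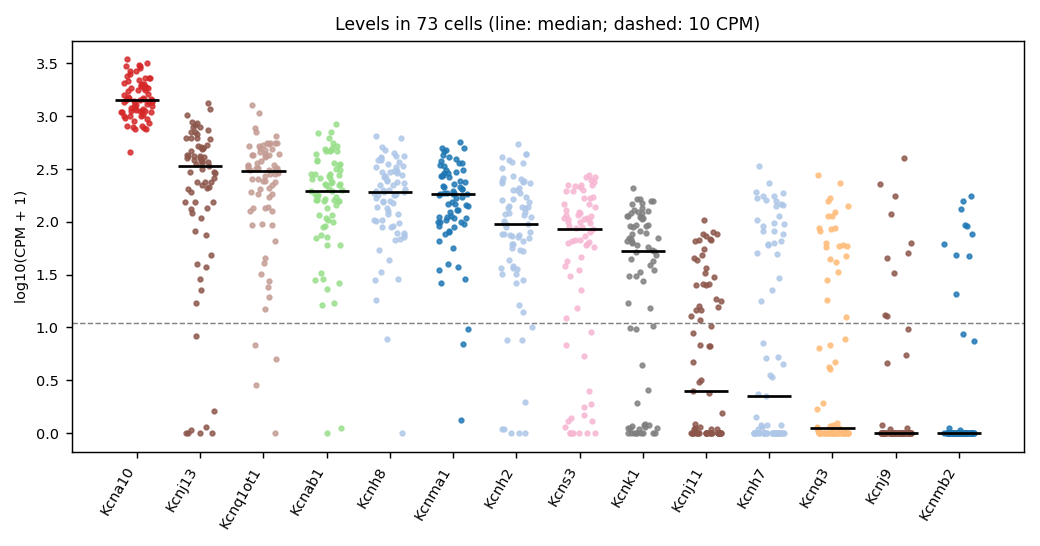
Level of 14 genes whose mean reached 10 CPM, as log10(CPM + 1) on the vertical axis, with 1 point per cell, a line at the median and a dashed line at 10 CPM. Kcna10 has its lowest cell at 459 CPM, whereas Kcnj11, Kcnh7 and Kcnq3 run from cells at 0 to cells above the dashed line. Some of their cells lie between: 38, 37 and 30 cells reach 1 CPM, and 28, 29 and 24 reach 10 CPM.

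Levels can be ordered between genes only per length. Divided by the bases of all annotated exons, the median of Kcna10 was 653 CPM per kb (quartiles 512 and 916) and that of Kcnj13 was 266 (quartiles 103 and 398). Kcnh8 came next at 41.5 (quartiles 22.1 and 65.5), so the middle cells of these 3 genes did not overlap. Below them, Kcns3 (26.8), Kcnk1 (23.5), Kcnh2 (19.6) and Kcnma1 (10.7) had overlapping quartiles with at least 1 neighbour in the order. Within single cells, Kcna10 had the highest level per kb of all pore genes in 71 of 73 cells, and Kcnj13 in the other 2. Kcna10 made up a median of 62.1% of the summed pore-gene level per kb (range 36.9 to 84.7). Kcnma1 has many isoforms and 16976 exon bases, which lowers its value: per kb of the longest coding sequence its median was 48.8 CPM, close to Kcnh8 at 57.2. On that scale, chosen after seeing the data, Kcna10 was highest in 72 cells.

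The 15 members whose mean reached 10 CPM were compared with Slc26a5 by rank correlation of CPM over the 73 cells. Cells share depth and library quality, so these values are a description. Of the 15, 1 reached 0.5 (against 1.35% of 8618 genes compared) and 1 reached -0.5 (against 0.87%). The median was -0.13, beside -0.03 for all genes compared. Positive values were seen for 5 members (33.3%, against 43.3% of all genes compared).

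Kcnj13 was the member that rose with Slc26a5, at 0.67. Its values were -0.79 with Atp2a3 and 0.66 with Ocm, a calcium buffer abundant in outer hair cells. Atp2a3 and Ocm themselves stood at -0.77 and 0.73 with Slc26a5. Values of a member with these 3 genes are therefore not independent of each other. The genes most like it over the 73 cells, members aside, were Clu (0.73), Sri (0.71) and Calb1 (0.71). Kcnj13 stood at -0.60 with the mitochondrial share of counts (1 member at or below -0.5, against 0.685% of genes compared), and Slc26a5 at -0.49. Whether that share follows RNA quality or the state of the cell was not tested. Of the 8 cells below 10 CPM for Kcnj13, library 7 alone had Slc26a5 above 10 CPM. Corrected for that share, Kcnj13 stood at 0.54 with Slc26a5 and -0.70 with Atp2a3.

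Kcnab1 fell with Slc26a5, at -0.64, and stood at 0.68 with Atp2a3. Corrected for the mitochondrial share, Kcnab1 stood at -0.58 with Slc26a5 and 0.63 with Atp2a3. With Atp2a3, 2 members reached 0.5 (Kcnab1 and Kcnj9, against 0.847% of genes compared) and 1 reached -0.5 (Kcnj13, against 1.65%). The value of Kcnj9 with Atp2a3 was 0.53, and 0.41 once corrected, so that it no longer reached 0.5. Kcnj9 had no count in 57 cells. Its mean of 15.7 CPM and its value with Atp2a3 thus rest mainly on the 10 cells in which it was detected. The genes most like Kcnab1, members aside, were Defb25 (0.71), Atp2a3 and Tomm7 (both 0.68). Libraries 34 and 68, where Kcnab1 was below 10 CPM, lie at the high end of Slc26a5.

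Of the 9 markers of other cell types found in 10 or more cells, 7 had a mean high enough to be compared, and 1 of them, Sox10, reached 0.5 with Slc26a5 (0.62). Sox10, a transcription factor of glia, stood at 0.61 with Kcnj13, -0.67 with Kcnab1, 0.34 with Kcna10 and -0.57 with the mitochondrial share. Its part in the values of these members was not tested. The other 6 lay between 0.04 and 0.35 with Slc26a5.

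Kcna10, a pore gene of the family that Kcnab1 assists, stood at 0.47 with Slc26a5 and -0.29 with Kcnab1. Both were detected in 71 cells. The value with Slc26a5 was 0.33 corrected for the mitochondrial share. With Slc17a8, the glutamate transporter of inner hair cells, Kcna10 stood at -0.09 and Kcnab1 at 0.37. Corrected for the mitochondrial share these values were 0.10 and 0.26, so the sign for Kcna10 turned.

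The other members had values below 0.5 in size. Kcnh2 (-0.47), Kcnj9 (-0.46) and Kcnma1 (-0.35) stood on the side of Kcnab1, and Kcnh7 (0.33) and Kcnmb2 (0.32) on the side of Kcnj13. Kcnj9 had no count in 57 cells and Kcnmb2 in 59, so their values rest mainly on the 10 cells in which each was detected. Corrected for the mitochondrial share, Kcnh2 stood at -0.42, Kcnj9 at -0.32, Kcnma1 at -0.23, Kcnh7 at 0.27 and Kcnmb2 at 0.30. Leaving out the 21 cells with 50 CPM or more of any of the 37 rare markers, Kcnma1 stood at -0.21, Kcnh7 at 0.23 and Kcnh2 at -0.56. The 2 ERG-type channels compared, Kcnh2 and Kcnh7, thus had opposite signs, and 24 cells held both. Kcnh7 had no count in 30 cells. Kcnk1 (-0.03), Kcns3 (-0.06) and Kcnj11 (-0.13) were nearer 0. Kcnq1ot1 (-0.29), Kcnq3 (-0.28) and Kcnh8 (-0.23) lay between. Kcnq1ot1 stood at 0.40 with the mitochondrial share and, corrected for it, at -0.12 with Slc26a5, and Kcnh8 stood at -0.13.

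**Figure D3:**
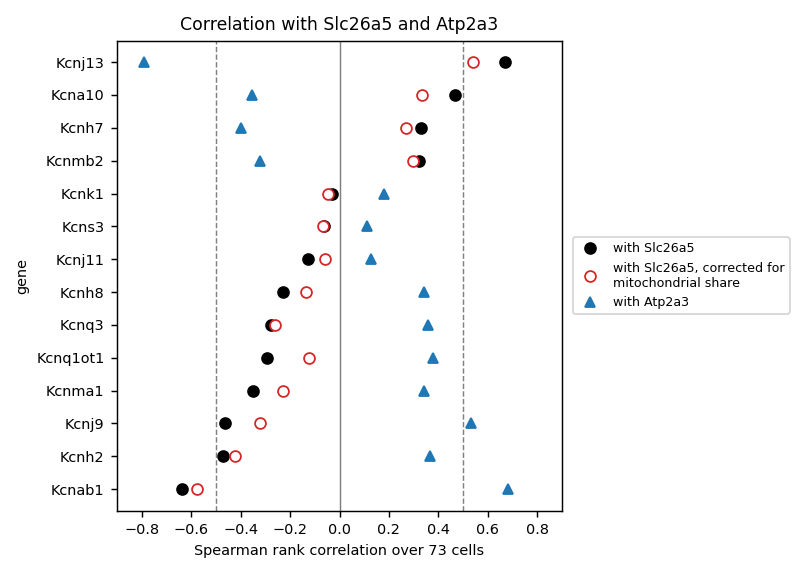
Spearman rank correlation over 73 cells (horizontal axis) of 14 potassium channel genes with Slc26a5 (black), with Slc26a5 corrected for the mitochondrial share (open red) and with Atp2a3 (blue triangles); dashed lines mark 0.5 and -0.5. Kcnj13 lies at 0.67 and Kcnab1 at -0.64 with Slc26a5, and their signs with Atp2a3 are the opposite. Slc26a5 and Atp2a3 stand at -0.77 with each other, so the values with each are not independent.

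**Figure D4:**
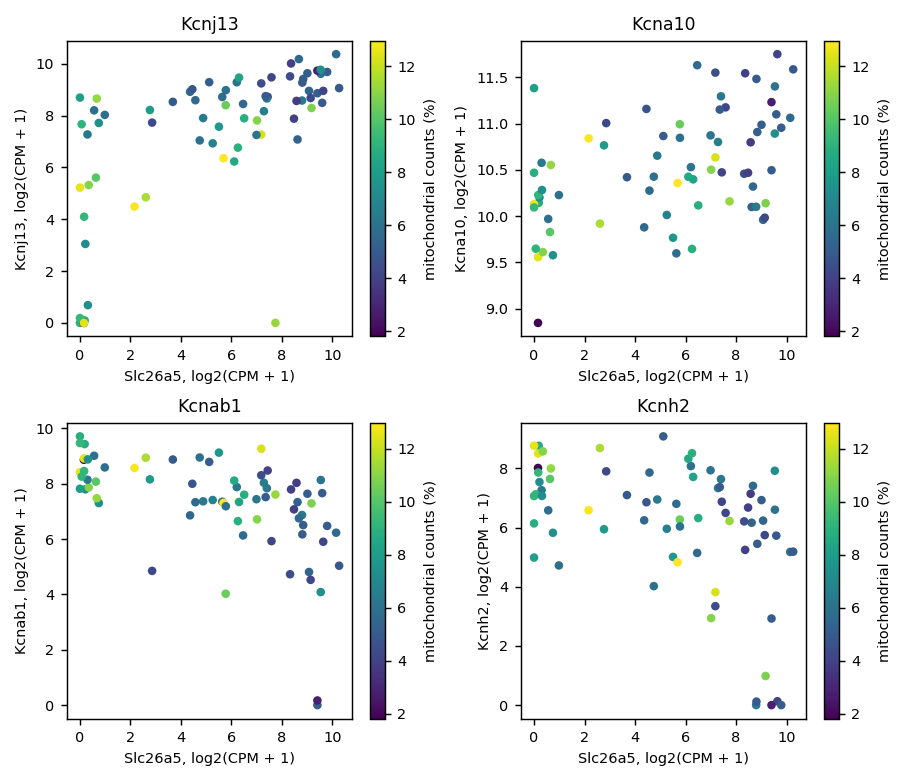
Levels of Kcnj13, Kcna10, Kcnab1 and Kcnh2 against Slc26a5, both as log2(CPM + 1), with 1 point per cell coloured by the mitochondrial share of counts in percent. All but 1 of the cells near 0 for Kcnj13 lie at the low end of Slc26a5, and those near 0 for Kcnab1 and Kcnh2 lie above its middle.

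Among themselves the 15 members mostly had weak rank correlations over the cells, with 14 of 105 pairs at 0.3 or more in size. Of the 105 pairs, 1 reached 0.5 (0.952%, against 0.0264% of all gene pairs) and 2 reached -0.5 (1.90%, against 0.0183%). Both shares were above those of all gene pairs, but they rest on 3 pairs, and all 3 include Kcnj13. The median over the pairs was -0.02, beside 0.004 over all gene pairs. The highest pair was Kcnj13 with Kcna10 at 0.58. It was followed by Kcnj9 with Kcnab1 (0.42), and by Kcnab1 with Kcnq1ot1 (0.36), Kcnh2 (0.34) and Kcnh8 (0.33).

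At the other end, Kcnj13 stood at -0.57 with Kcnj9, -0.55 with Kcnab1 and -0.44 with Kcnq1ot1. Kcnj9 is above 0 in few cells, so its value rests mainly on the 10 cells in which it was detected. Kcnmb2 with Kcnk1 (-0.33) and Kcnj9 with Kcnh7 (-0.33) completed the 5 lowest pairs. Kcnmb2 had no count in 59 cells and reached the minimum mean only with libraries 5 and 67 included. Corrected for the mitochondrial share, no pair reached 0.5 in size: Kcnj13 stood at 0.45 with Kcna10, -0.43 with Kcnj9 and -0.45 with Kcnab1.

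**Figure D5:**
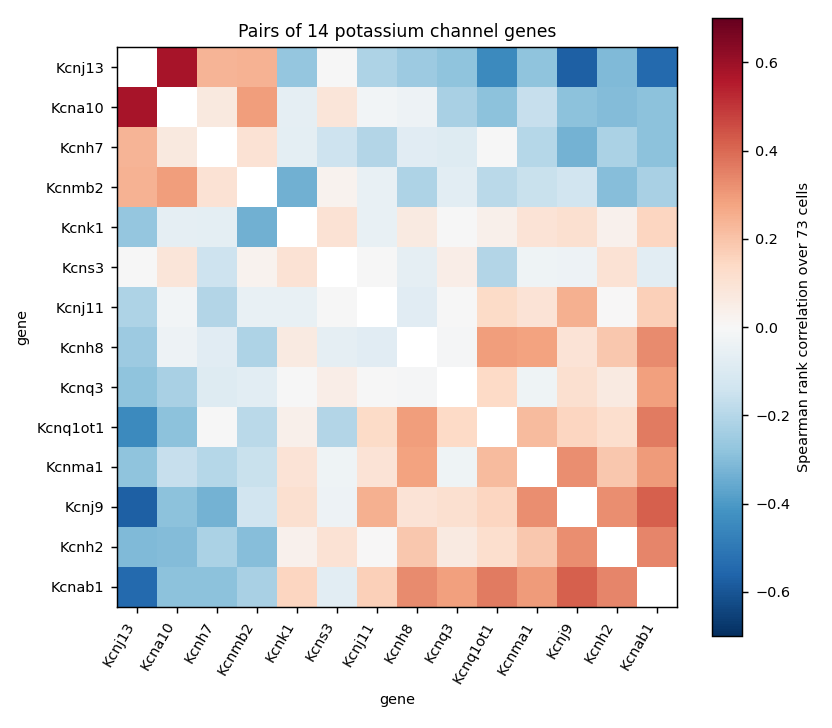
Spearman rank correlation over 73 cells for each pair of 14 potassium channel genes, ordered on both axes by their value with Slc26a5. Kcnj13 and Kcna10 form the darkest red pair (0.58), and Kcnj13 with Kcnj9 (-0.57) and with Kcnab1 (-0.55) the darkest blue.

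The upstream sequences of Kcnj13 and Kcna10 are shown because they were the only pair to reach 0.5. They come from the RefSeq promoter table of GRCm38.p6, end before any annotated exon base, and carry matches to CANNTG, the E-box of basic helix-loop-helix factors, in capitals. The Kcnj13 window is chr1:87394730-87394979 on the minus strand, 250 bases ending at the start site, and the Kcna10 window is chr3:107182893-107183055 on the plus strand, 163 bases ending 87 bases before the start site.
Kcnj13: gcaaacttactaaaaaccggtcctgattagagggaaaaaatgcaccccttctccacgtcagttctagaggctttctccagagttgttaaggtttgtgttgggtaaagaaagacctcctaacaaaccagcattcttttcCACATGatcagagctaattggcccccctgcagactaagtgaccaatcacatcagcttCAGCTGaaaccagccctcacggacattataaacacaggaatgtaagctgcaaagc
Kcna10: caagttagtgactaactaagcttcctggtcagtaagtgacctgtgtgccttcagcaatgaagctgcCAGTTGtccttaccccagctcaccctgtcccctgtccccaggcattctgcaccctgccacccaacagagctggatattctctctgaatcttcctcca
Kcnj13 held 2 matches to CANNTG, a motif present in 66.2% of windows of the same length and place, and Kcna10 held 1, against 52.1%. TATAAA, searched on both strands like the others, matched once in Kcnj13 (12.4% of windows) and not in Kcna10 (7.78%). AGATAA, the GATA-type motif, matched in neither. These letters describe the windows and show no binding.

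Other genes of potassium transport, a list of 32 pumps, cotransporters and channel partners, were compared in the same way. Of the 32, 10 were detected in at least 37 cells and 10 in none. Among 13 compared, 0 reached 0.5 or -0.5, 8 were positive and 5 negative, and the median was 0.04. Lrrc52 was the lowest at -0.42 and Atp1b1, a sodium pump beta subunit detected in 72 cells (median 410 CPM), the highest at 0.35.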

How the data were processed

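Raw counts for every gene in 73 cells were deposited by the authors. HISAT2 2.2.1, StringTie 2.2.1, featureCounts 2.0.1 and mm10 are named per the submitters' processing notes, without role or settings, and no source used here names the annotation. Without molecular identifiers in the kit, PCR copies are counted, and use of strand is not stated. The reporter row WPRE (0.0161% of counts) was left out of totals. No libraries were identical over 2628 pairs. CPM used the library total. Spearman correlations covered the 8619 genes whose mean reached 10 CPM, and the correction removed ranked mitochondrial share. Positions and exon lengths come from GENCODE vM21 (mm10), which matched all 94 members. Named genes are members in at least 37 cells or correlated at 0.5 or more in size with Slc26a5, the 5 highest and lowest pairs, 3 nearest genes and fixed role lists. Members and lists were chosen with earlier results of these data known. The correlation step was tested on simulated data. Versions were scran 1.30.0 in R 4.3.3, and scipy 1.17.1, pandas 2.3.3, numpy 2.4.6 and matplotlib 3.10.9 in Python 3.11.15. Alternatives changed the scale, depth, minimum level, correlation, correction or cells used. Some named members and list genes are left out of the text and plots, but remain in all counts.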

Additional observations from a re-analysis of the deposited data

How the results depend on the processing

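Of 200 values of single members or pairs under 8 alternatives of scaling, depth, correction or cells, 185 stayed within 0.1 of the value reported, 15 moved further and 0 changed sign from a value of 0.5 or more in size. Of the 15, 9 moved when corrected for the mitochondrial share. Another 4 moved with Pearson correlation and 2 without the cells with a rare marker at 50 CPM. The 10 members in at least 37 cells became 12 at a detection level of 1 CPM and 9 at 50 CPM. Kcnj13 with Slc26a5 ranged from 0.54 to 0.69 and Kcnab1 from -0.64 to -0.53. With scran size factors 2 members rose with Slc26a5, Kcna10 joining Kcnj13. Members falling numbered 2 with Pearson correlation of log2(CPM + 1), which added Kcnj9, and 2 without the 21 cells with a rare marker at 50 CPM, which added Kcnh2. Pairs at 0.5 or higher numbered 0 with Pearson correlation and 0 corrected for the mitochondrial share, and 27 with no minimum, when genes with counts in a single cell are compared. Pairs at -0.5 or lower numbered 1 with a minimum mean of 20 CPM, 1 with Pearson correlation, 1 corrected for total counts and 0 corrected for the mitochondrial share. The cause was not tested. The length of the longest coding sequence was added as an alternative after seeing the data. No paired analysis was possible because the design has 1 group.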

Other observations

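Library 48 carried traces of many channel genes that no cell expressed at 10 CPM. Of the 47 members never detected, 12 had a count there, against a median of 1 per cell and at most 5 in any other library, and 10 had their maximum there. All of these traces together were 87 counts. Library 48 also had the most genes with a count (10688), and of 8436 genes that never reached 10 CPM anywhere it held 1131, against a median of 709 per cell and at most 1040 in any other library.

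The 34 members detected in 1 to 10 cells gave 123 detections, a median of 2 per cell and at most 4. Of these detections, 45 (36.6%) fell in the 21 cells with a rare marker of another cell type at 50 CPM, which are 28.8% of all cells. Of the 47 detected members, 2 had their maximum in library 67 and 0 in library 5. Library 67 had the most members detected of any cell (16), and 4 of the 34, which is the highest number per cell.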
